A study of Caenorhabditis elegans with 6 samples.

Results

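The 75 genes described here are the major sperm protein and sperm genes of Caenorhabditis elegans, taken by symbol: every gene whose symbol in the WBcel235 annotation begins with msp-, ssp-, ssq-, sss- or spe- and whose mean over the 6 libraries was at least 1 FPKM. FPKM counts fragments per kilobase of gene model, scaled to the size of the library, so it is a level already divided by gene length. The annotation holds 77 such genes, all 77 are in the deposited tables, and 75 reached the minimum, among 13511 genes that did so and 46589 identifiers in all. They comprise 30 msp, 12 ssp, 4 ssq, 1 sss and 28 spe genes. RNA came from whole wild-type young adult hermaphrodites kept at 20 °C, in 3 libraries of animals fed 5 mM tryptophan for 36 h from the last larval stage (L4) and 3 libraries of control animals 36 h after that stage. The genotype and the growth protocol, on nematode growth medium plates after synchronisation in M9 buffer, were the same for all 6. Libraries are numbered 1 to 3 within a group, and no separate cultures are named, so the spread that a p-value reflects here is that among the libraries and may be technical.

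A hermaphrodite makes its sperm first, late in larval life, and then switches its germline to oocytes, so that spermatogenesis transcripts belong to an early and limited window. The major sperm proteins (MSPs) are small, closely alike proteins that assemble into filaments and drive the crawling of the amoeboid sperm, which has no flagellum. They also leave the sperm as a signal that starts oocyte maturation and contraction of the gonadal sheath. The ssp, ssq and sss symbols stand for sperm-specific families of classes P, Q and S. The spe symbol marks genes found through mutants with defective sperm, which act in spermatocytes, in sperm activation, at fertilization or just after it.

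A pair of libraries stood apart from the other 4 before any sperm gene was considered. Tryptophan library 1 and control library 1 had a correlation of log2 values across the genes tested of 0.578, against 0.96 to 0.98 among libraries 2 and 3 of both groups. Tryptophan library 1 also differed from tryptophan libraries 2 and 3 by transcript length: leaving out the sperm genes, the median difference in log2(FPKM + 1) was 1.45 for genes of up to 400 bp, 0.22 for genes over 1000 and up to 1500 bp and -1.90 for genes over 5000 bp. For control library 1 against control libraries 2 and 3 the same medians were -0.18, -0.03 and 0.78. Yolk genes, expressed in the adult hermaphrodite gut, summed to 406, 3951 and 1885 FPKM in tryptophan libraries 1 to 3 and 19564, 1865 and 946 FPKM in control libraries 1 to 3 over 6 genes. The 15 oocyte and eggshell genes summed to 1046, 2479.7 and 1676 FPKM in tryptophan libraries 1 to 3 and 9578, 2336 and 2199 FPKM in control libraries 1 to 3. Both sums were lowest in tryptophan library 1 and highest in control library 1; their part in the sperm gene results was not tested. Of 10 genes of the male soma 0 reached the minimum, and their highest value was 1.65 FPKM. Depth, estimated from the spacing of low values, was 14.6 to 24.9 M counted units a library.

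The msp genes were the most abundant sperm genes, and their highest and lowest levels were in the libraries numbered 1. msp-31 (R05F9.13, chromosome II, 4916179 to 4916562), the highest by mean, had 3052, 496 and 603 FPKM in tryptophan libraries 1 to 3, against 44.9, 785 and 943 FPKM in control libraries 1 to 3. msp-40 (C33F10.9, chromosome II, 4825414 to 4825797) had 1884, 322 and 367 FPKM with tryptophan, against 30.9, 444 and 547 FPKM in the controls, and msp-33 (R05F9.8, chromosome II, 4892311 to 4892694) had 1792, 297 and 404 FPKM with tryptophan, against 28.7, 415 and 488 FPKM in the controls. In all 3 genes tryptophan library 1 was the highest library and control library 1 the lowest, and the other 4 libraries lay between them, so the groups overlapped. That order of the extremes held for 30 of 30 msp genes, for 62 of 75 sperm genes and for 21.4% of all genes tested. Among genes of up to 400 bp, it held for 39 of 40 sperm genes and for 33.5% of all genes tested. Over the 30 msp genes the summed level was 22030.0, 5600.1 and 5748 FPKM in tryptophan libraries 1 to 3 and 508, 7311 and 8584 FPKM in control libraries 1 to 3.

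**Figure D1:**
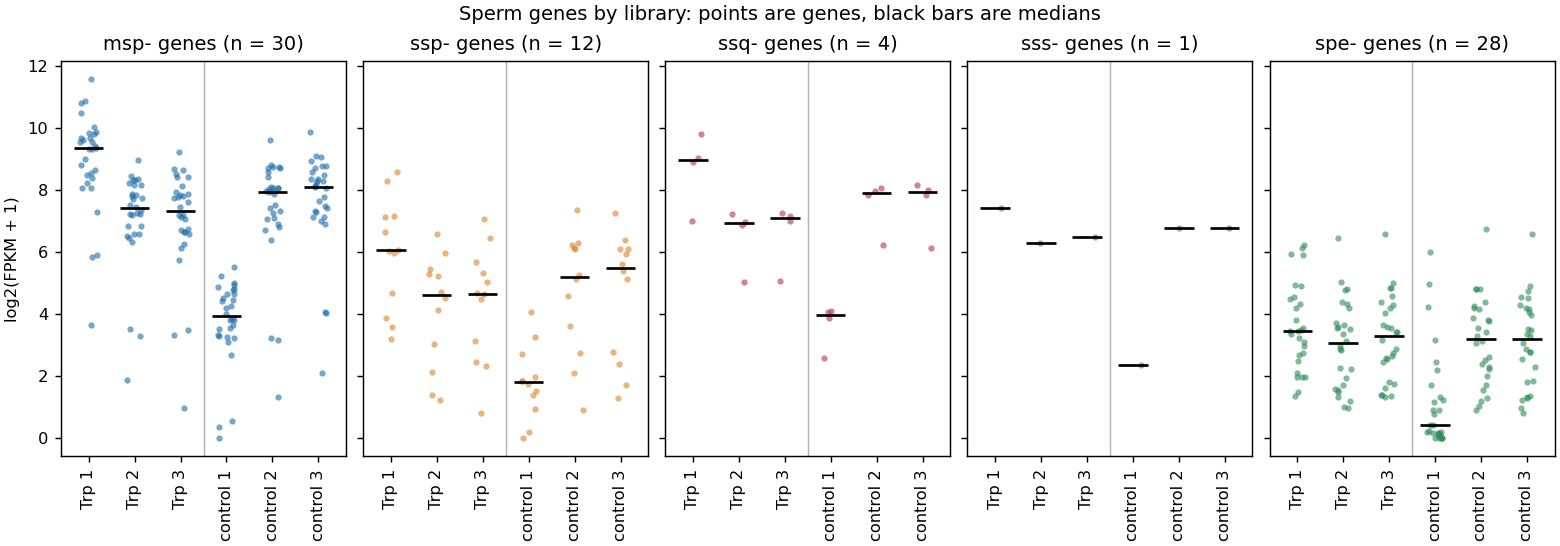
Each point is a sperm gene and its height is log2(FPKM + 1) in the library on the x axis, with tryptophan (Trp) libraries left of the line and control libraries right of it; panels are the 5 symbol classes and black bars are medians. Control library 1 is lowest in every panel, tryptophan library 1 is highest in every panel, and the other 4 libraries lie between them.

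No sperm gene passed the test of tryptophan against control over all 6 libraries. limma called 0 of 75 at an adjusted p under 0.05, and its background over all genes tested was 0%. At an unadjusted p under 0.05 it found 0 of 75, against 1.17% of all genes tested (0.822% higher and 0.348% lower). The median log2 fold change of the sperm genes, on the log2(FPKM + 1) scale that understates the change of low genes, was 1.20 against -0.03 over all genes tested, and 71 of 75 were positive against 47.7%. That positive median goes with 1 library of each group. It was 0.12 without control library 1, 0.71 without tryptophan library 1 and -0.30 in libraries 2 and 3 alone. In whole animals, a difference in the number of sperm-forming cells and a difference in RNA per cell cannot be told apart.

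The groups did not overlap for 3 sperm genes, each with all tryptophan libraries above all controls, against 3.98% of all genes tested. They did not overlap in the lower direction for 0 of 75, against 4.32%. A share of 3 in 75 is near that background. spe-4 (ZK524.1, chromosome I, 7454660 to 7456953), a presenilin-like protein of the organelles that carry MSP in the spermatocyte, had 21.7, 17.2 and 17.4 FPKM in tryptophan libraries 1 to 3, against 0.888, 13.7 and 16.8 FPKM in control libraries 1 to 3. spe-26 (R10H10.2, chromosome IV, 10389578 to 10391927), which encodes a kelch-like protein needed in spermatocytes, had 9.37, 7.87 and 10.7 FPKM with tryptophan, against 0.15, 7.48 and 6.3 FPKM in the controls.

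The excess of tryptophan library 1 was larger in short sperm genes than in long ones. Over 40 sperm genes of up to 400 bp its median difference from tryptophan libraries 2 and 3 was 1.89 (log2), against 1.45 for other genes of that length. Over 8 sperm genes above 600 and up to 1000 bp the medians were 1.43 and 0.89, and over 8 above 1500 and up to 2000 bp they were 0.18 and -0.36. The 7 sperm genes that were lower in that library than the mean of tryptophan libraries 2 and 3 were all spe genes: spe-15, spe-18, spe-39, spe-41, spe-44, spe-46 and spe-49. spe-15 (F47G6.4, chromosome I, 1446497 to 1465358), an unconventional myosin and, at 3889 bp, the longest of the 75, had 9.98, 26.9 and 28 FPKM with tryptophan, against 2.26, 26.8 and 18.7 FPKM in the controls. The part that length plays in the level of any 1 sperm gene was not tested.

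In control library 1 the median of the sperm genes lay below that of other genes in each of the 7 bins of length that held any. The median difference from control libraries 2 and 3 was -3.86 (log2) for the 40 sperm genes of up to 400 bp, against -0.18 for the others. It was -3.16 against -0.03 over 10 sperm genes above 1000 and up to 1500 bp, and -1.07 against 0.19 over 8 above 1500 and up to 2000 bp. In linear terms the mean of control libraries 2 and 3 was 11.4 to 40.5 times control library 1 (median 15.8) over the 29 msp genes above 0 there. In control library 1, 7 sperm genes were listed at 0, among them msp-58, E03H12.10, spe-27, spe-38, spe-49 and spe-51, and 0 were in any other library. The sperm genes together made up 2.34%, 0.95% and 1.17% of the summed FPKM in tryptophan libraries 1 to 3, and 0.0736%, 1.25% and 1.27% in control libraries 1 to 3.

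**Figure D2:**
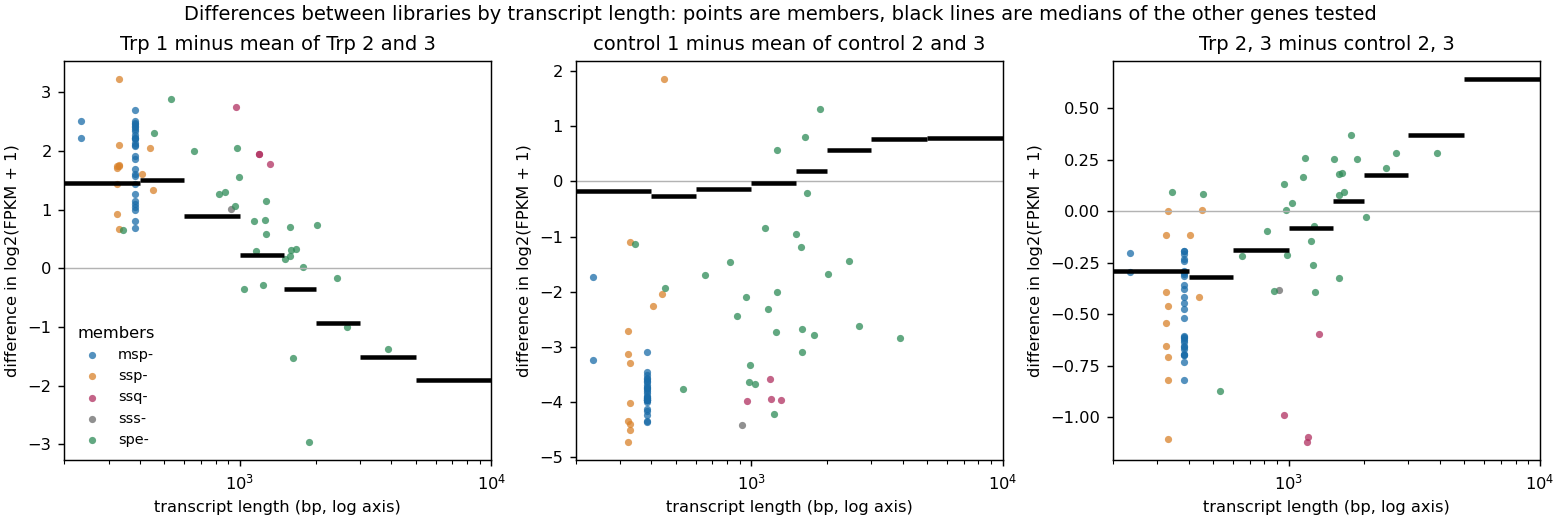
The x axis is transcript length in bp on a log axis and the y axis a difference in log2(FPKM + 1): tryptophan library 1 minus the mean of tryptophan 2 and 3 (left), control library 1 minus the mean of control 2 and 3 (middle), tryptophan 2 and 3 minus control 2 and 3 (right). Points are sperm genes and black lines are medians of the other genes tested in 8 bins of length; the lines of all 3 panels slope with length, and in the middle panel most sperm genes lie far below the line.

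Not every msp gene had the same excess in tryptophan library 1. The ratio of that library to the mean of tryptophan libraries 2 and 3 ran from 1.61 to 6.52 with a median of 4.31, although 28 of the 30 gene models have the same length of 384 bp. The 12 msp genes on chromosome II had a median log2 difference of 2.36 (range 1.57 to 2.70), and the 18 on chromosome IV one of 1.74 (range 0.69 to 2.51). The ranges overlap, and the difference was not tested. msp-81 (K07F5.1, chromosome IV, 9836034 to 9836417) had 892, 319 and 341 FPKM with tryptophan, against 29.6, 341 and 415 FPKM in the controls, and msp-76 (ZK1251.6, chromosome IV, 9689015 to 9689398) had 652, 347 and 399 FPKM with tryptophan, against 26.8, 417 and 442 FPKM in the controls. msp-36 (C04G2.4, chromosome IV, 10095433 to 10095816) stood at 1417, 328 and 279.7 FPKM with tryptophan, against 26.7, 426 and 538 FPKM in the controls. The msp genes are near-identical copies, so how the authors' software divided reads among them is uncertain, and the sum over the class depends less on that division than any single msp value. The log2 fold changes over all 6 libraries of the 6 most abundant, msp-31, msp-40, msp-33, msp-36, msp-81 and msp-76, were 1.58, 1.61, 1.72, 1.45, 1.5 and 1.38, with SEs of 1.01 to 1.24 and adjusted p in limma of 0.802 for all 6.

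The ssp genes, which encode small proteins related to the MSPs, ran from a mean of 2.16 to 155 FPKM. ssp-10 (K07F5.9, chromosome IV, 9850702 to 9851031) had 382, 95.6 and 134 FPKM in tryptophan libraries 1 to 3, against 8.71, 162 and 151 FPKM in control libraries 1 to 3. A pair of ssp loci carry 1 symbol, ssp-9, in the Ensembl annotation and are told apart here by sequence name. T28H11.6 (chromosome IV, 4999485 to 4999814; ssp-11 in RefSeq) had 309, 43.1 and 23.9 FPKM with tryptophan, against 2.39, 74 and 66.9 FPKM in the controls, and E03H12.10 (chromosome IV, 4994371 to 4994700) had 8.21, 1.62 and 0.767 FPKM with tryptophan, against 0, 0.895 and 1.45 FPKM in the controls. ssp-35 (F55C5.1, chromosome V, 12263500 to 12263823) and ssp-34 (ZC168.6, chromosome IV, 10738279 to 10738602) had log2 fold changes of 1.64 (SE 1.14) and 1.49 (SE 1.28). Those of ssp-10 and T28H11.6 were 1.46 (SE 1.13) and 1.43 (SE 1.39), and limma's adjusted p was 0.802 for each of these 4. All 4 had tryptophan library 1 highest and control library 1 lowest.

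The 4 ssq genes and sss-1 had means of 56.6 to 286 FPKM. ssq-1 (K07F5.11, chromosome IV, 9852550 to 9853609) had 902, 125 and 142 FPKM in tryptophan libraries 1 to 3, against 15.9, 249 and 283 FPKM in control libraries 1 to 3. ssq-2 (T28H11.5, chromosome IV, 4996142 to 4997559) had 522, 149.8 and 153 FPKM with tryptophan, against 13.8, 230.4 and 228 FPKM in the controls, and ssq-4 (T28H11.1, chromosome IV, 5016479 to 5017766) had 476, 117 and 128 FPKM with tryptophan, against 16.2, 267 and 258 FPKM in the controls. ssq-3 (ZC477.1, chromosome IV, 7111604 to 7112885), the lowest of the 4, had 128, 31.8 and 32.7 FPKM with tryptophan, against 5.05, 74.1 and 68.4 FPKM in the controls. In each ssq gene tryptophan libraries 2 and 3 were below control libraries 2 and 3, with the extremes again in the libraries numbered 1. sss-1 (F32B6.5, chromosome IV, 9892739 to 9893749) had 169, 76.8 and 89.7 FPKM with tryptophan, against 4.1, 108 and 108 FPKM in the controls. Over all 6 libraries the log2 fold changes of ssq-1, ssq-2, ssq-3, ssq-4 and sss-1 were 1.25 (SE 1.23), 1.32 (SE 1.11), 0.73 (SE 1.06), 0.87 (SE 1.12) and 1.43 (SE 1.16), with adjusted p in limma of 0.802 to 0.838.

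The spe genes were lower in level and less uniform than the others. Their median was 10.02, 7.34 and 8.83 FPKM in tryptophan libraries 1 to 3, and 0.345, 8.27 and 8.18 FPKM in control libraries 1 to 3. Of 28, 25 had control library 1 lowest, 17 had tryptophan library 1 highest and 3 had control library 1 highest. The median log2 fold change over all 6 libraries was 0.82, with 25 positive.

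Among the 9 spe genes that act in the organelles and division of the spermatocyte, spe-18 (F32A11.3, chromosome II, 13151459 to 13153399), needed for MSP to assemble into the spermatocyte's fibrous bodies, was the most abundant. It had 74.7, 87.4 and 95.8 FPKM in tryptophan libraries 1 to 3, against 4.48, 107 and 95.5 FPKM in control libraries 1 to 3. Unlike msp-31, it did not have its highest value in tryptophan library 1, and its lowest was again in control library 1; its log2 fold change was 1.17 (SE 1.09). spe-6 (Y66D12A.20, chromosome III, 11505488 to 11508930), a casein kinase 1 relative needed for MSP assembly and for holding back early activation, had 30.02, 10.9 and 15.4 FPKM with tryptophan, against 3.56, 17.4 and 17.3 FPKM in the controls (log2 fold change 0.66, SE 0.68). spe-10, a palmitoyltransferase of the organelles, stood at 6.46 ± 0.948 FPKM with tryptophan and 3.31 ± 2.9 FPKM in control (SD, n = 3 each), and spe-5, a subunit of the vacuolar proton pump, at 11.1 ± 1.69 FPKM with tryptophan and 8.99 ± 1.06 FPKM in control (SD, n = 3 each).

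The 7 spe genes of sperm activation, the step that turns the round spermatid into a crawling sperm, had low levels. spe-8 (F53G12.6, chromosome I, 118093 to 120901), a tyrosine kinase that gives its name to the activation group, had 6.92, 6.43 and 5.33 FPKM with tryptophan, against 0.349, 7.73 and 7.44 FPKM in the controls. spe-19 (Y113G7A.10, chromosome V, 20040949 to 20047410), of the same group, had 10.1, 3.74 and 4.95 FPKM with tryptophan, against 0.14, 3.75 and 3.94 FPKM in the controls, and of all 75 its log2 fold change of 1.18 (SE 0.67) had the smallest unadjusted p, 0.121 (adjusted p in limma 0.802). spe-12, spe-27, spe-29, spe-43 and spe-47 ranged in mean from 2.23 to 10.1 FPKM, and all 7 had control library 1 lowest. A counted unit is worth 0.042 to 0.0718 FPKM on a transcript of the length of spe-19, so its control library 1 value of 0.14 FPKM stands for about 1.94 units.

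The 7 spe genes that act at fertilization, on the surface of the sperm or secreted by it, included the lowest levels of the 75. spe-9 (C17D12.6, chromosome I, 11582743 to 11586069), a membrane protein with EGF-like repeats, had 4.57, 2.31 and 2.4 FPKM with tryptophan, against 0.0665, 2.29 and 2.54 FPKM in the controls. spe-38 (Y52B11A.1, chromosome I, 10964472 to 10966382), another membrane protein, had 10.2, 1.54 and 2.06 FPKM with tryptophan, against 0, 3.04 and 1.6 FPKM in the controls. spe-36 (F40F11.4, chromosome IV, 11588260 to 11592265), a secreted protein, had 2.97, 0.96 and 1.62 FPKM with tryptophan, against 0.128, 1.32 and 0.759 FPKM in the controls, and spe-41, a TRP-type calcium channel once named trp-3, had 5.46, 12.2 and 11.6 FPKM with tryptophan, against 0.73, 9.74 and 9.39 FPKM in the controls. Except in spe-41, tryptophan library 1 was the highest in these examples, and control library 1 the lowest in each. The log2 fold changes of spe-9, spe-38 and spe-36 were 0.78 (SE 0.55), 1.02 (SE 0.73) and 0.72 (SE 0.42), with adjusted p in limma of 0.802 for all 3.

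spe-11 (F48C1.7, chromosome I, 5330578 to 5332169), a sperm-supplied protein that the fertilized egg needs, had 68.4, 10.7 and 23.1 FPKM in tryptophan libraries 1 to 3, against 0.342, 17 and 14.6 FPKM in control libraries 1 to 3. Its log2 fold change of 1.90 (SE 1.11, adjusted p in limma 0.802) was the highest of the 75, and the groups overlapped. Of the spe genes not placed by role, spe-54 (F55H12.5, chromosome I, 8869715 to 8871531) had 59.4, 19.1 and 20.01 FPKM with tryptophan, against 1.36, 19.8 and 26.1 FPKM in the controls, and spe-46 (W06D4.2, chromosome I, 9056293 to 9057824) had 22.2, 26.6 and 30.8 FPKM with tryptophan, against 1.27, 26.9 and 28.8 FPKM in the controls. Their log2 fold changes were 1.42 (SE 0.98) and 1.14 (SE 0.97).

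A group of 4 sperm genes ran against the rest, with their highest value in control library 1. spe-39 (ZC404.3, chromosome V, 6785451 to 6787864), a vesicle trafficking protein used in many tissues, had 2.95, 31.7 and 27.6 FPKM in tryptophan libraries 1 to 3, against 62.5, 26.8 and 22.6 FPKM in control libraries 1 to 3. spe-44 (C25G4.4, chromosome IV, 12452063 to 12454215), a regulator of transcription that acts early in spermatogenesis, had 3.28, 11.5 and 11.1 FPKM with tryptophan, against 17.9, 10.7 and 8.92 FPKM in the controls. Both were lowest in tryptophan library 1, the reverse of msp-31. spe-48 (Y51F10.10, chromosome I, 1950594 to 1958527) had 29.1, 19.8 and 18.5 FPKM with tryptophan, against 30.6, 18.4 and 22.1 FPKM in the controls, and ssp-37 (W02D9.5, chromosome I, 12561040 to 12561560) had 11, 3.42 and 4.06 FPKM with tryptophan, against 16, 5.66 and 2.33 FPKM in the controls. These 4 are the sperm genes with a negative log2 fold change over all 6 libraries, at -1.17 (SE 0.87), -0.59 (SE 0.57), -0.07 (SE 0.41) and -0.16 (SE 0.71), with adjusted p in limma of 0.802, 0.802, 0.966 and 0.952. In libraries 2 and 3 spe-39 and spe-44 were higher with tryptophan, by 0.25 and 0.19 (log2), without passing the test.

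**Figure D3:**
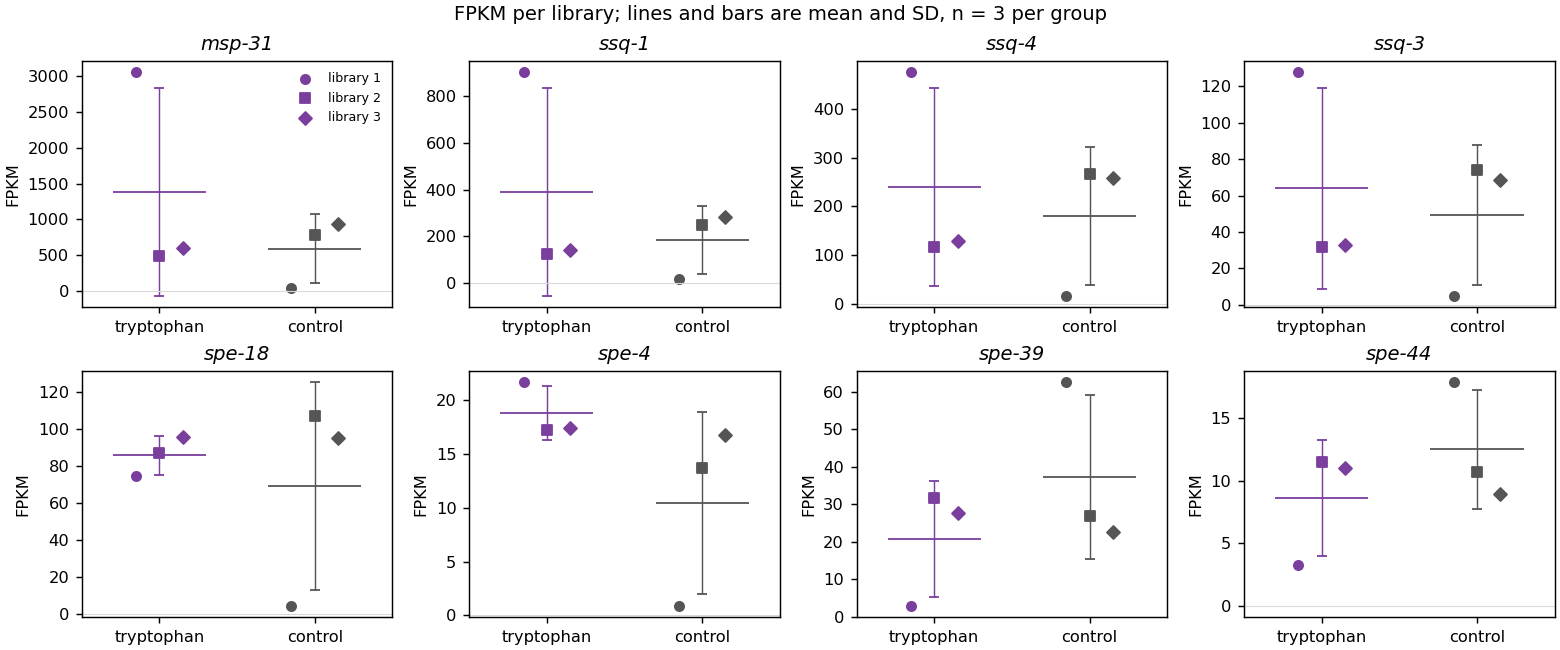
FPKM of 8 sperm genes, with tryptophan libraries at the left and control libraries at the right of each panel; marker shapes give the library number, and lines and bars are the mean and SD (n = 3 per group). Library 1 is highest with tryptophan and lowest in control for msp-31, the 3 ssq genes and spe-4, and the reverse for spe-39 and spe-44.

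Within the 4 libraries that resemble each other (2 and 3 of each group), a subset chosen after seeing the data, most msp, ssp and ssq genes had negative fold changes and most spe genes did not. All 30 msp, all 4 ssq, 10 of 12 ssp genes and sss-1 had a negative log2 fold change, against 11 of 28 spe genes and 52.6% of all genes tested. The class medians were -0.46 for msp, -0.44 for ssp, -1.04 for ssq and 0.08 for spe, and that over all genes tested was -0.02. limma called 0 of the 75 at an adjusted p under 0.05, against a background of 0.503%. At an unadjusted p under 0.05 it found 22 sperm genes, all lower with tryptophan, which is 29.3% of them against 8.3% of all genes tested in that direction; in the higher direction it found 0, against 5.68%. Of the 40 sperm genes of up to 400 bp, 17 were lower at that p, against 22.7% of all genes tested of that length. The 22 were 12 msp, 5 ssp and 4 ssq genes and 1 spe gene. The groups did not overlap in the lower direction for 39 of 75, against 25% (30 of the 40 of up to 400 bp, against 35.3% of all genes tested of that length), and in the higher direction for 7, all spe genes, against 21.4%. Of the 39, 24 were msp genes. The msp genes are near-identical copies with an uncertain division of reads, so these counts treat as separate genes that are not independent.

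Of the classes, ssq had the lowest median in these 4 libraries. ssq-3 had 31.8 and 32.7 FPKM in tryptophan libraries 2 and 3, against 74.1 and 68.4 FPKM in control libraries 2 and 3, a log2 fold change of -1.12 (SE 0.19, adjusted p in limma 0.0595). ssq-4 had 117 and 128 FPKM in tryptophan libraries 2 and 3, against 267 and 258 FPKM in control libraries 2 and 3, at -1.09 (SE 0.19, adjusted p in limma 0.0677). ssq-1 had -0.99 (SE 0.20, adjusted p in limma 0.11) and ssq-2 -0.60 (SE 0.19, adjusted p in limma 0.26). The ssp locus T28H11.6 had -1.10 (SE 0.28, adjusted p in limma 0.183), chosen for mention after its value was seen. In linear terms the mean of tryptophan libraries 2 and 3 was 0.453, 0.467, 0.502 and 0.66 times that of control libraries 2 and 3 for ssq-3, ssq-4, ssq-1 and ssq-2. msp-31 had -0.65 (SE 0.23), ssp-10 -0.46 (SE 0.22) and sss-1 -0.38 (SE 0.19), with adjusted p in limma of 0.288, 0.406 and 0.419. In the higher direction the smallest p-values belonged to spe-26, spe-41 and spe-39, at 0.37 (SE 0.23), 0.28 (SE 0.20) and 0.25 (SE 0.20), with adjusted p in limma of 0.504, 0.549 and 0.60. spe-18 stood at -0.14 (SE 0.19).

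Length moved with this difference too. Over the other genes tested, the median log2 difference of tryptophan libraries 2 and 3 from control libraries 2 and 3 was -0.29 for genes of up to 400 bp, -0.08 for those above 1000 and up to 1500 bp, and 0.64 for those over 5000 bp, and the msp genes are at the short end. With each library centred within bins of length, an alternative added after seeing the data, the msp median in libraries 2 and 3 was -0.16 with 21 of 30 negative, and the ssp median was -0.13. The sperm genes lower at an unadjusted p under 0.05 then numbered 9, in place of 22, against 5.78% of all genes tested. They were 1 msp, 3 ssp and 4 ssq genes and 1 spe gene. The ssq genes, at 963 to 1316 bp, kept a median of -0.90, and ssq-3 and ssq-4 then passed, at -1.03 and -1.0 with adjusted p in limma of 0.0222 and 0.0314. These were 2 of 75 sperm genes called lower, against 0.459% of all genes tested (0.918% in either direction). The spe median was 0.08. Over all 6 libraries, centring left the median of the 75 at 1.03 with 71 positive.

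**Figure D4:**
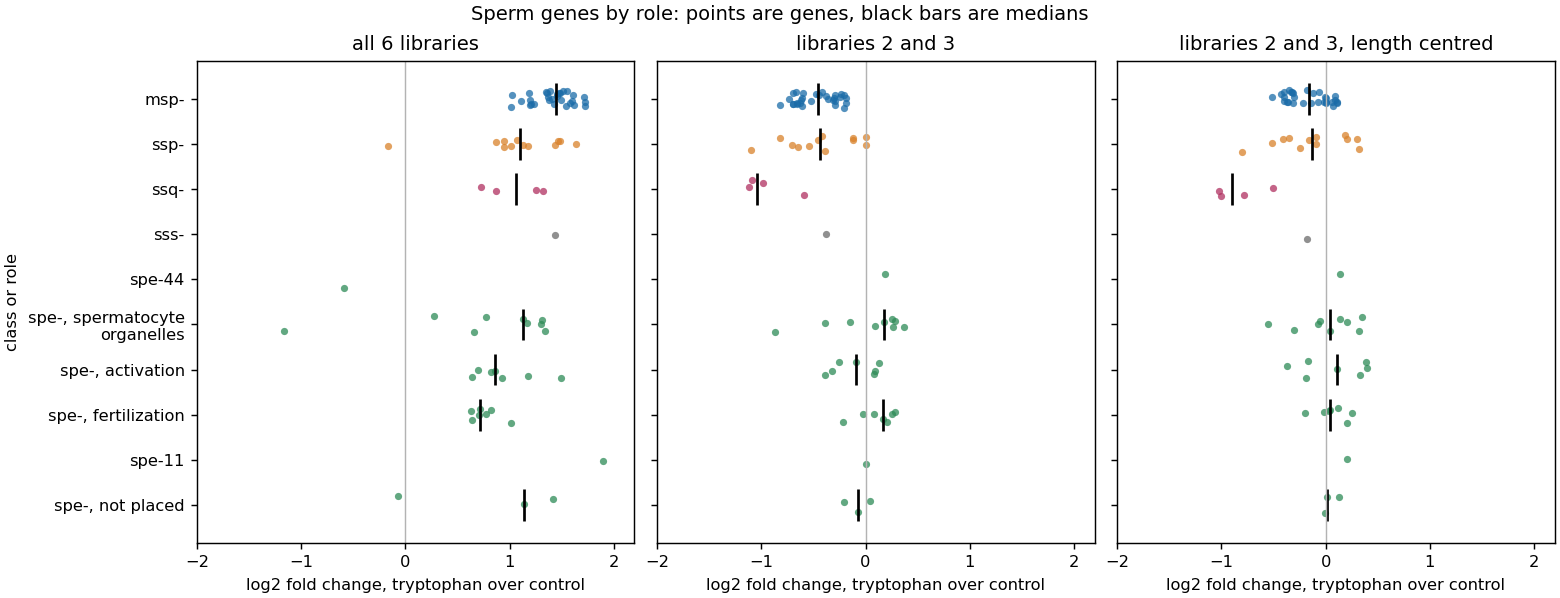
The x axis is the log2 fold change of tryptophan over control and rows are the symbol classes, with the spe genes split by role; points are genes and black bars are medians. Over all 6 libraries (left) most points lie right of 0, in libraries 2 and 3 (middle) the msp, ssp and ssq points lie mostly left of 0 and the spe points around it, and with length centring (right) the ssq genes remain apart at -0.90.

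Other sperm genes, listed by their known roles, were mostly positive over all 6 libraries too. Of 28 listed genes 24 were matched to a single locus, and all 24 reached the minimum. limma called 0 of them over all 6 libraries, 0 also at an unadjusted p under 0.05, and 21 were positive, against 47.7% of all genes tested, with a median log2 fold change of 1.05. spch-1, which encodes a sperm chromatin protein, was the most abundant, at 1162, 269 and 284 FPKM with tryptophan, against 15.2, 359 and 449 FPKM in the controls, followed by spch-3 and then msd-4, at 119, 131 and 169.7 FPKM with tryptophan, against 14.5, 190.3 and 182 FPKM in the controls. The 3 that were negative were cpb-1 and fog-1, RNA-binding proteins of early sperm development, and zipt-7.1, a zinc transporter of sperm activation, each highest in control library 1 (49.3, 18.1 and 79.4 FPKM). In libraries 2 and 3, 10 of the 24 were positive, against 47.3% of all genes tested, and limma called 4, against 0.252% called lower of all genes tested. These 4 were all lower with tryptophan and all of the nspd family of small sperm-enriched peptides, chosen for mention after their values were seen. nspd-2 had 25.7 and 13.8 FPKM in tryptophan libraries 2 and 3, against 102 and 84.1 FPKM in control libraries 2 and 3 (log2 fold change -2.23, SE 0.29, adjusted p in limma 0.025), and nspd-1, nspd-3 and nspd-7 fell by 1.57, 2.18 and 2.40 on the log2 scale (adjusted p in limma 0.0257, 0.0145 and 0.0227). In the libraries numbered 1, nspd-2 had 315 FPKM with tryptophan and 8.28 FPKM in control. Over all 6 libraries the log2 fold changes of nspd-1, nspd-2, nspd-3 and nspd-7 were 0.81, 0.21, 0.27 and 0.06. Their adjusted p in limma was 0.852 to 0.99. These gene models are short, at 213 to 216 bp. With length centring in libraries 2 and 3, limma called 4 of the 24 lower, against 0.459% of all genes tested.

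Genes on the receiving side of the MSP signal, in oocytes and the gonadal sheath, had mostly negative fold changes over all 6 libraries. The list of 19 includes vab-1, an Eph receptor that binds MSP, the G protein and adenylate cyclase genes gsa-1 and acy-4, and the gap junction genes inx-14 and inx-22. limma called 0 of 19 over all 6 libraries, 0 also at an unadjusted p under 0.05, with 4 positive, against 47.7% of all genes tested, and a median log2 fold change of -0.58. Their transcripts are long, at 1301 to 10665 bp (median 2535 bp), so the shares of all genes tested given here are not matched for length. With length centring the median over all 6 libraries was -0.46, with 6 positive. Their summed level was 93.2, 538 and 425 FPKM in tryptophan libraries 1 to 3 and 945, 433 and 329 FPKM in control libraries 1 to 3. vab-1 had 3.03, 27.3 and 16.3 FPKM with tryptophan, against 66.2, 17.5 and 14.6 FPKM in the controls. In libraries 2 and 3 limma called 0 of 19 (5 at an unadjusted p under 0.05, all higher, against 5.68% of all genes tested), with 16 positive against 47.3% and a median of 0.38, and with length centring the median was 0.11. The 10 genes of the germline at large, among them gld-1 and cgh-1, had a median of -0.80 over all 6 libraries and -0.06 in libraries 2 and 3, with 0 called in either, also at an unadjusted p under 0.05.

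The sperm genes share a place in the genome that the choice by symbol did not use. Chromosome IV holds 38 of the 75 (50.7%, against 17.9% of all genes tested), chromosome I 16, chromosome II 13, chromosome V 6 and chromosome III 2. The X chromosome holds 0, against 13.2% of the genes tested. All 30 msp genes lie on chromosomes II and IV, and all 4 ssq genes on IV, whereas 12 of the 28 spe genes lie on I. On chromosome IV, 14 sperm genes lie between 4692763 and 5316906 and 17 between 9689015 and 10738602 (gaps of at most 500 kb), and on chromosome II 9 msp genes lie between 4785898 and 5200180. In the first of these, ssq-2 lies between the loci E03H12.10 and T28H11.6. In the second, ssq-1 lies next to ssp-10. All 30 msp gene models and 9 of 12 ssp models have 1 exon, and 0 of the 28 spe models do; the 28 msp models of 384 bp hold 381 coding bases before the stop, so they include no UTRs.

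At the edge of the rule, spe-36 and spe-51 were among the lowest means of the 75, at 1.29 and 1.39 FPKM. Below the minimum were spe-42, at 0.902 FPKM, and msp-32, at 0.0611 FPKM.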

How the data were processed

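Whole-animal RNA from 3 tryptophan and 3 control samples went into TruSeq libraries, per the labels. For each library the authors deposited a table of FPKM values, as the headers name them. The submitters' processing notes name the build WBcel235, StringTie and Bowtie 0.12.2. Which annotation release was used, whether strand was kept, and how libraries were scaled is not given in the sources used here. Of 46589 identifiers (sequence names), 46180 were paired with a gene of Ensembl release 115 (WBcel235), whose coordinates, 1-based, and longest transcript per gene are used. No reference sequence was used here.

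Values were analysed as log2(FPKM + 1) for 13511 genes with a mean of at least 1 FPKM. The group term was tested (two-sided) with limma 3.58.1, run in R 4.3.3 beside statmod 1.5.0, with its trended eBayes; p-values were adjusted by Benjamini-Hochberg over every gene tested, and calls needed an adjusted p under 0.05. With 3 libraries a group, the smallest exact permutation p is 0.1. The code was tested on simulated data with large changes and less spread among libraries than in these data. That checks the code only, not how the test performs on data like these. Python 3.11.15 made the tables (pandas 2.3.3, numpy 2.4.6) and drew the figures (matplotlib 3.10.9).

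FPKM multiplied by length, over 12495 genes with 1 transcript of at least 600 bp, fell within 0.2 steps of a whole multiple for 70.3% to 74% of low values, so depth is an estimate and no counts were rebuilt.

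Named members are the 6 msp, 4 ssp, 4 ssq, 2 sss (1 was found) and 6 spe genes of highest mean, 6 spe genes whatever their values, the 3 of smallest p in each direction, and the lowest above and highest below the minimum. The others named, the roles of spe genes and the genes named for libraries 2 and 3 were chosen after the values were seen. Values of some single members are not reported here. The members and lists were chosen with earlier results of these data known. Early embryo genes (7 listed) had 0 members at the minimum, and seminal fluid genes (2 listed) had 1. The early embryo genes summed to 0.175, 0.275 and 0.497 FPKM in tryptophan libraries 1 to 3. In control libraries 1 to 3 they summed to 5.55, 0.316 and 0.212 FPKM, and their highest single value was 2.56 FPKM.

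Alternatives were: median rescaling; quantile normalization; rescaling to TPM; pseudocounts of 0.5 and 0.1; a minimum of 5 FPKM or none; eBayes untrended or robust; the replicate number as a block; and leaving out each library. Libraries 2 and 3 alone, and centring within bins of transcript length (edges 400, 600, 1000, 1500, 2000, 3000 and 5000 bp), were added after seeing the data.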

Additional observations from a re-analysis of the deposited data

How the results depend on the processing

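Over all 6 libraries, 0 genes were called under any alternative that did not leave out both libraries numbered 1, the replicate block included (0 higher, 0 lower, median log2 fold change 1.20). The deviations of same-numbered libraries from their group means had correlations of -0.372, -0.296 and -0.344. Within a group of 3 libraries the deviations cancel, so these values depend on each other and on the libraries numbered 1. Whether same-numbered libraries share a batch was not tested. In libraries 2 and 3 alone, 34 genes were called higher and 34 lower, the sperm median was -0.30 and 19 of 75 were positive. The groups did not overlap for 7 and 39 sperm genes, higher and lower, against 21.4% and 25% of all genes tested. There the log2 fold changes of msp-31, msp-40, msp-33, msp-36, msp-81, msp-76, ssp-10, T28H11.6, ssp-35, ssp-34, ssq-1, ssq-2, ssq-4, ssq-3, sss-1, spe-18, spe-39, spe-54, spe-9, spe-44, spe-8, spe-38, spe-6 and ssp-37 took the opposite sign, at -0.65, -0.52, -0.38, -0.66, -0.19, -0.21, -0.46, -1.10, -0.12, -0.65, -0.99, -0.60, -1.09, -1.12, -0.38, -0.14, 0.25, -0.21, -0.03, 0.19, -0.32, -0.22, -0.39 and 0.01. Over all 6 libraries the value of spe-48 was 0.08 with quantile normalization and 0.04 with rescaling to TPM, against -0.07. The cause was not tested.

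With 1 library left out in turn, the sperm median over all libraries ran from 0.12 to 1.85. Genes that changed sign had ranges of -0.03 to 2.2 for T28H11.6, -0.24 to 1.91 for spe-18, -0.08 to 1.78 for spe-46, -0.26 to 0.12 for spe-48, -0.01 to 1.00 for spe-6, -0.26 to 1.09 for spe-8, -0.08 to 2.28 for ssp-34, -0.72 to 0.45 for ssp-37, -0.07 to 1.96 for ssq-1, -0.00 to 1.98 for ssq-2, -0.47 to 1.35 for ssq-3, -0.44 to 1.54 for ssq-4 and -0.04 to 2.17 for sss-1.

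In libraries 2 and 3, length centring gave 62 genes higher and 62 lower, 2 sperm genes lower (against 0 without it), 31 of 75 positive and a sperm median of -0.07. Median rescaling called 1 sperm gene lower, ssq-3. Quantile normalization gave 20 genes higher and 20 lower and a sperm median of -0.20. Rescaling to TPM gave 14 genes lower, 30 sperm genes positive, 13 and 23 that did not overlap, higher and lower, and a sperm median of -0.08. It also moved the median of all genes tested to 0.19. The share of all genes tested that did not overlap was not counted with that rescaling. The 13 and 23 therefore have no background, and their shift from the counts without rescaling cannot be read as a change in the sperm genes. The log2 fold change of spe-18 was 0.09 with rescaling to TPM, against -0.14. Leaving out 1 of the 4 gave 0 to 29 genes higher, 0 to 10 lower, a sperm median of -0.41 to -0.22, and 10 to 15 sperm genes that did not overlap, higher with tryptophan. There the lone library of a group is assumed to vary like the other group's pair, so only the median is read. In the lower direction, 42 to 52 sperm genes did not overlap in the same runs, more than the 10 to 15 in the higher direction. The share of all genes tested that did not overlap was not counted there, so neither range has a background.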
